A study of Mus musculus with 6 samples.

Results

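Scavenger receptors are surface and vesicle proteins with which macrophages take up modified lipoproteins, microbes, dying cells and free haemoglobin. The 9 genes described here were chosen by name, as Marco beside 8 other receptors of the family (Msr1, Cd36, Scarb1, Scarb2, Cd68, Olr1, Cd163 and Cd5l), out of 16266 genes in the deposited tables. All 9 were found and all 9 passed the filter on low counts, which left 12219 genes. The set was drawn up around the large difference of Marco between genotypes. The values of its members in that comparison are therefore given as a description, without p-values, although the members were in the fit of all genes.

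The RNA came from mouse bone marrow-derived macrophages (BMDMs), cells grown out of marrow in culture, all stimulated for 24 h with lipopolysaccharide (LPS), the bacterial ligand of TLR4. Knockout (KO) macrophages lacking Capns1 gave 3 libraries, and wild-type (WT) macrophages gave 3. Capns1 is the small subunit that calpains 1 and 2 share. The series title speaks of a deletion in myeloid cells. Neither the Cre line, nor the age of the mice, nor the origin of the replicates (separate mice or separate dishes) is stated in the labels, so p-values measure only the spread between these libraries, which may be technical. The genotype field reads CAPNS1-KO, CAPNS2-KO and CAPNS3-KO in KO replicates 1, 2 and 3, while the series' design speaks of Capns1 alone. Capns1 stood at 9.13 to 9.94 CPM (counts scaled by the library total) in the KO libraries, against 478 to 521 CPM in the WT libraries (log2 fold change -5.73 ± 0.12 SE, edgeR quasi-likelihood test with Benjamini-Hochberg adjustment, adjusted p = 1.77e-10), so the transcript was low in each KO library, whichever gene its genotype field names. No libraries without LPS were analysed here.

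The members fall into classes by structure. Marco and Msr1 are class A receptors, trimers with a collagen-like stalk that bind bacteria, polyanions and modified low-density lipoprotein. Cd36, Scarb1 and Scarb2 belong to class B, whose members span the membrane at both ends and handle lipids. Cd68 is a heavily glycosylated protein of late endosomes and lysosomes. Olr1 is a lectin-like receptor for oxidised low-density lipoprotein, best known from endothelium. Cd163 takes up haemoglobin, and Cd5l is a secreted protein built of the same cysteine-rich domains as Cd163. Marco is known as a receptor of alveolar and splenic marginal zone macrophages that LPS induces in other macrophages.

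Marco and Cd68 were the most abundant members in KO cells, and they differed sharply in how far KO stood from WT. The 250 bases before the start site of each are shown for orientation (RefSeq, GRCm38.p6, minus strand), with matches to the AP-1 motif TGANTCA, searched on both strands, in capitals. The Marco window lies at chr1:120505025-120505274 and the Cd68 window at chr11:69666171-69666420.

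Marco: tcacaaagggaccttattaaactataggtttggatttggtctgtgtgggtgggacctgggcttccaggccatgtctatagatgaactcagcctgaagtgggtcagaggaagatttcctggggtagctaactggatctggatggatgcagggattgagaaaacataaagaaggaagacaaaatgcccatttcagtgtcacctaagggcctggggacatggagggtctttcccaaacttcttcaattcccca

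Cd68: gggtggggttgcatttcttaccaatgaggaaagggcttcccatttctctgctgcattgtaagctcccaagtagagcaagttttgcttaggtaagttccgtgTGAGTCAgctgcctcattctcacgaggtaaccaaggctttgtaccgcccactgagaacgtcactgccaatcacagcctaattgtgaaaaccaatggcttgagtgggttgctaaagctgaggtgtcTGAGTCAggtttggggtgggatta

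The Cd68 window holds 2 AP-1 matches, at -149 and -24 from the start site, and the Marco window holds none. AP-1 matches occur in 6.73% of 32536 RefSeq windows of this length. The Marco window also holds no match to TGACNNNGC (10.2% of windows), CACGTG (6.04%) or GAGGAAGT (2.45%), which are strings taken from sites bound by NRF2, by E-box factors and by PU.1. Shorter or looser forms of these strings were not searched. These are letters in a window and not measured sites. A window was found for 7 of the 9 members. Among the windows not shown, that of Olr1 held an AP-1 match at -60 and that of Scarb2 a TGACNNNGC match at -99. The others held no match to these strings. Any link of the matches to the difference between genotypes was not tested.

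Marco, on chromosome 1 at 120474538 to 120505024 (GRCm38), had 1688, 2091 and 1434 CPM in KO replicates 1 to 3, against 126, 102 and 86.4 CPM in WT replicates 1 to 3. The groups were far apart, with the lowest KO library 11.4 times the highest WT library. The counts behind these values were 46798 to 77819 in KO and 3536 to 4356 in WT libraries. Means were 1738 ± 331 CPM in KO and 105 ± 19.7 CPM in WT (SD, n = 3 each), a log2 fold change of 4.04 ± 0.18 SE, and Marco ranked 17 from the top among the log2 fold changes of all tested genes. The SD was 19.1% of the mean in KO and 18.9% in WT. In bulk RNA, more cells of a type and more RNA per cell cannot be told apart, and this holds for every level given here. By FPKM, the count scaled by gene length and library total, Marco ranked 56 to 89 among all genes in the KO libraries and 1023 to 1446 in the WT libraries.

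Msr1, the other class A member (chromosome 8, 39581685 to 39642673), showed no such separation. It had 211, 242 and 211 CPM in KO replicates 1 to 3 and 197, 212 and 174 CPM in WT replicates 1 to 3. The groups overlapped, and the log2 fold change was 0.17 ± 0.11 SE, and 0.083 without KO replicate 2 or 0.11 without WT replicate 3. The ratio of Marco to Msr1 in FPKM was 34.4 ± 4.11 in KO and 2.37 ± 0.38 in WT (SD, n = 3 each). This ratio depends on the gene lengths behind the deposited FPKM, 1.925 kb for Marco and 8.468 kb for Msr1. In CPM the order in WT was the reverse, with means of 105 for Marco and 194 for Msr1. Without KO replicate 2 and WT replicate 3, the 2 libraries that stood apart from the rest of their groups, the log2 fold change of Msr1 was 0.0051 and that of Marco 3.74.

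**Figure D1:**
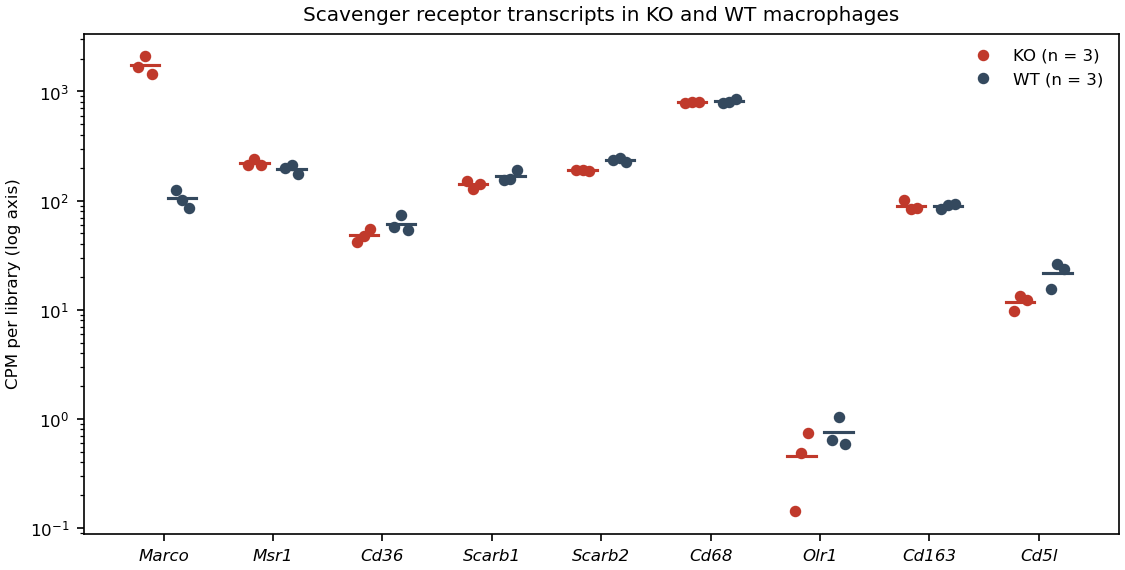
CPM of each receptor in every library on a log axis, with KO left of WT. Each point is 1 library and each line is the mean of 3. Marco alone lies higher in every KO library than in any WT library, at 1434 to 2091 CPM against 86.4 to 126 CPM.

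The 3 class B members were all lower on average in KO than in WT. Scarb2, a lysosome membrane protein (chromosome 5, 92441314 to 92506833), had 189, 192 and 186 CPM in KO replicates 1 to 3, against 236, 247 and 225 CPM in WT replicates 1 to 3. Its groups did not overlap, and replicates agreed closely, to 1.37% of the mean in KO and 4.65% in WT. The log2 fold change was -0.34 ± 0.092 SE. Scarb1, the receptor for high-density lipoprotein that takes up cholesteryl esters (chromosome 5, 125277087 to 125341094), had 150, 129 and 143 CPM in KO replicates 1 to 3, against 154, 156 and 191 CPM in WT replicates 1 to 3. The groups were separated only by the gap between KO replicate 1 and WT replicate 1. The log2 fold change was -0.27 ± 0.11 SE, and it was -0.15 without WT replicate 3 and -0.12 without KO replicate 2 and WT replicate 3. Cd36, which takes up long-chain fatty acids and oxidised lipoprotein (chromosome 5, 17781690 to 17888801), had 41.4, 47.6 and 54.8 CPM in KO replicates 1 to 3, against 56.8, 73.6 and 53.7 CPM in WT replicates 1 to 3. KO replicate 3 lay above WT replicate 3, so the groups overlapped, and the log2 fold change was -0.38 ± 0.14 SE. It was -0.22 without WT replicate 2 and -0.46 without KO replicate 3.

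Cd68 (chromosome 11, 69664213 to 69666153) was nearly level. It had 784, 802 and 798 CPM in KO replicates 1 to 3 and 782, 802 and 849 CPM in WT replicates 1 to 3, a log2 fold change of -0.052 ± 0.090 SE.

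Cd163 was level and Cd5l was lower in KO. Cd163 (chromosome 6, 124304656 to 124330527) had 102, 83.4 and 84.7 CPM in KO replicates 1 to 3 and 83.7, 90.9 and 92.3 CPM in WT replicates 1 to 3. The log2 fold change was -0.0054 ± 0.11 SE, with KO replicate 1 as the highest library of the 6. Cd5l, which supports macrophage survival (chromosome 3, 87357881 to 87371073), had 9.71, 13.4 and 12.2 CPM in KO replicates 1 to 3, against 15.5, 26.3 and 23.5 CPM in WT replicates 1 to 3. Every KO library was below every WT library, and the log2 fold change was -0.91 ± 0.19 SE. Cd5l varied most among WT libraries, apart from Olr1, with an SD of 25.6% of the mean. Olr1 (chromosome 6, 129485244 to 129507165) was close to absent. Its libraries held 5 to 24 counts in KO and 22 to 41 counts in WT, or 0.454 ± 0.298 CPM in KO and 0.752 ± 0.246 CPM in WT (SD, n = 3 each). Its log2 fold change of -0.75 ± 0.54 SE ranged from -1.24 to -0.31 when 1 library was left out.

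Counted over the set, 4 of 9 members had groups that did not overlap, Marco with KO above WT and Scarb1, Scarb2 and Cd5l with KO below WT. The same held for 33.6% of tested genes, 18.2% with KO above and 15.5% below. In edgeR's quasi-likelihood test, a gene with a Benjamini-Hochberg adjusted p under 0.05 is termed called. That was so of 1 member higher in KO and 2 lower, against 8.44% and 6.21% of tested genes and 14.6% in either direction, and nothing is read from this count, since the set was chosen with the comparison known. The median log2 fold change of the 9 members was -0.27, beside -0.011 for all tested genes. None of the 9 has an exon that overlaps another gene in GENCODE M21, and at most 0.636% of the 32-base words in a member's transcripts occur in transcripts of other genes, so counts of the members are little exposed to reads from elsewhere.

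Levels can be set against each other only per length, in FPKM. The gene lengths behind the deposited FPKM ran from 1.247 kb for Cd68 to 8.468 kb for Msr1, and the order depends on them. In KO cells the order was Marco (903 ± 172 FPKM), Cd68 (637 ± 7.64), Scarb2 (40.0 ± 0.549), Scarb1 (34.0 ± 2.62), Msr1 (26.1 ± 2.09), Cd163 (20.0 ± 2.32), Cd36 (13.1 ± 1.84), Cd5l (5.79 ± 0.933) and Olr1 (0.127 ± 0.0834; SD, n = 3). None of the 8 pairs of neighbours in this order overlapped between libraries. In WT cells Cd68 led at 651 ± 27.6 FPKM and Marco followed at 54.3 ± 10.2 FPKM (SD, n = 3). Scarb2 was next, at 47.7 to 52.3 FPKM over WT libraries, which overlapped those of Marco. Cd163 and Cd36 overlapped as well, at 19.7 ± 1.03 and 16.8 ± 2.93 FPKM. The other 7 members kept the same order in both genotypes, and Marco and Cd68 exchanged the first and second places.

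Taken as a sum, the 9 receptors came to 1679 ± 175 FPKM in KO and 866 ± 21.1 FPKM in WT (SD, n = 3 each). Marco made up 53.4 ± 4.63% of this sum in KO and 6.30 ± 1.34% in WT, and Cd68 38.2 ± 3.78% in KO and 75.1 ± 1.42% in WT. Without Marco the sum was 776 ± 6.76 FPKM in KO and 811 ± 31.3 FPKM in WT, a difference of the opposite sign.

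**Figure D2:**
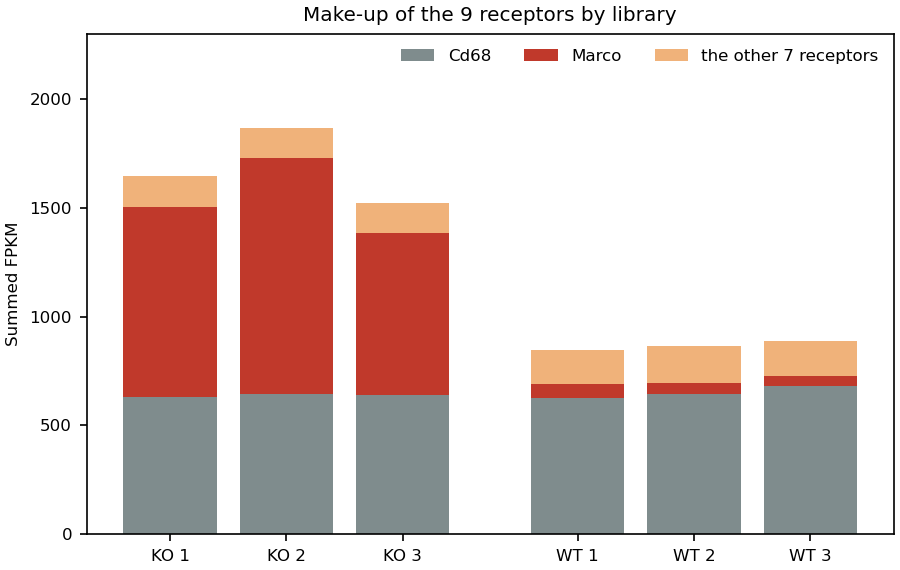
Summed FPKM of the 9 receptors in each library, split into Cd68 (grey), Marco (red) and the other 7 (orange). The Cd68 block is of like height throughout, at 629 to 643 FPKM in KO and 627 to 681 FPKM in WT, while the Marco block is 745 to 1086 FPKM in KO and 44.9 to 65.2 FPKM in WT.

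The 5 genes whose profile over the 6 libraries was most like that of Marco were Gdpd3, Rpl21, Plekhg1, H2-Q7 and Ly6a. Likeness was the root mean square distance between centred log2 CPM, which was 0.31 for Gdpd3, a lysophospholipase D, and 0.58 for Ly6a, a surface protein also called Sca-1. The values were centred and not scaled, so with the large difference of Marco the measure picks mainly genes with a similar difference between genotypes. The 5 had log2 fold changes of 2.93 to 3.96. Gdpd3 had 19.7 ± 1.70 CPM in KO and 1.67 ± 0.50 CPM in WT (SD, n = 3 each), a log2 fold change of 3.54 ± 0.21 SE. Rpl21, H2-Q7 and Ly6a share 16.8%, 38.2% and 31.2% of their words with other genes, so their values are uncertain.

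Other scavenger receptors moved in both directions. Of 24 further genes of the consensus classes and related uptake receptors, 22 were in the table and 18 were tested. In KO 2 rose and 3 fell (edgeR, adjusted p under 0.05), beside 8.44% higher and 6.21% lower of all tested genes. The list median log2 fold change was 0.14. Mrc2, an endocytic collagen receptor, rose with 26.9, 15.3 and 22.5 CPM in KO replicates 1 to 3, against 4.47, 4.26 and 5.72 CPM in WT replicates 1 to 3. Its log2 fold change was 2.13 ± 0.20 SE (edgeR adjusted p = 4.38e-05). Scara3, a class A relative known as a stress-response gene, rose from a low level, with 2.23 ± 0.755 CPM in KO and 0.748 ± 0.194 CPM in WT (SD, n = 3 each; log2 fold change 1.56, edgeR adjusted p = 0.0130). Its call was lost without KO replicate 2 (adjusted p = 0.0511), WT replicate 1 (0.0509), or KO replicate 2 and WT replicate 3 together (0.0566).

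Colec12, the class A collectin, fell. It had 84.0, 84.9 and 80.1 CPM in KO replicates 1 to 3, against 129, 133 and 130 CPM in WT replicates 1 to 3. The groups lay far apart for their narrow spread, with a log2 fold change of -0.67 ± 0.094 SE (edgeR adjusted p = 7.02e-04). Stab2, a hyaluronan clearance receptor, fell too (7.43 ± 0.887 CPM in KO and 12.2 ± 2.67 CPM in WT, SD, n = 3 each; log2 fold change -0.74, edgeR adjusted p = 0.0168). That call was lost without KO replicate 3 (adjusted p = 0.0580) or WT replicate 2 (0.0656), and with limma-trend on log2 FPKM plus 1 or plus 0.1 (limma adjusted p = 0.0548 and 0.0621). The LPS co-receptor Cd14, outside the rule for named genes and added after its values were seen, fell by 0.34 on the log2 scale (edgeR adjusted p = 0.0304). Its call was lost without any single library other than KO replicate 2 (adjusted p of up to 0.133).

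**Figure D3:**
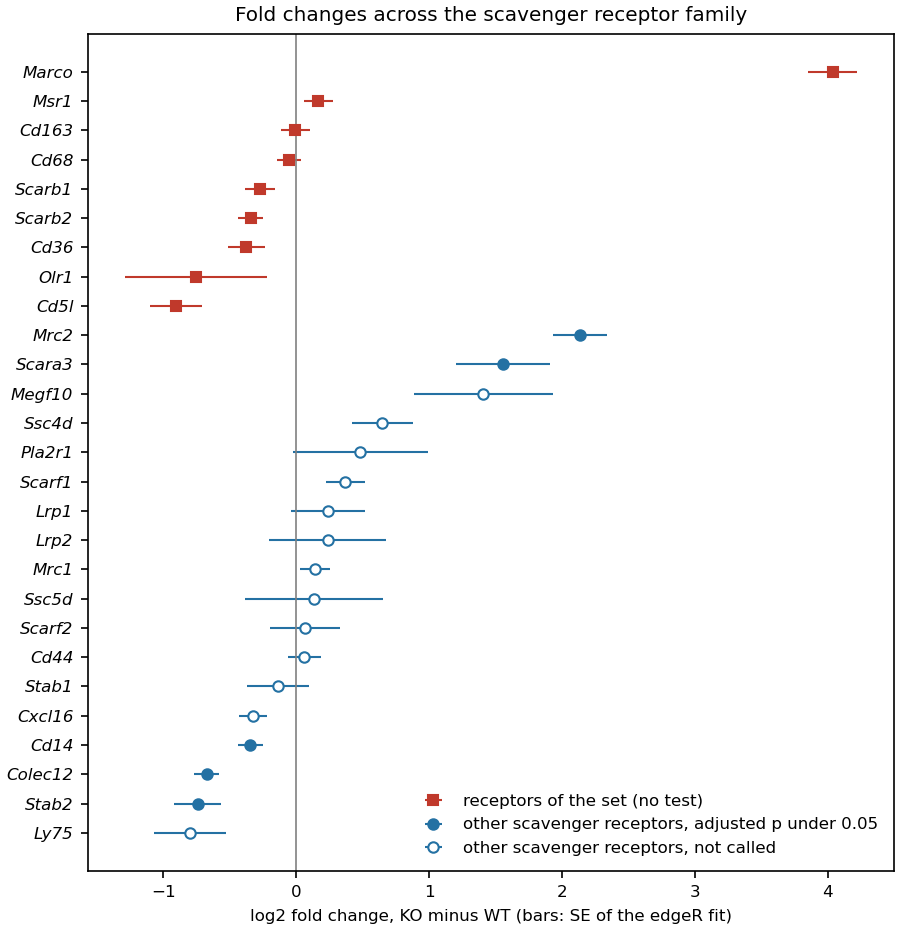
Log2 fold change, KO minus WT, of the 9 receptors (squares, no test shown) and of 18 other scavenger receptors (circles, filled where the adjusted p was under 0.05). Bars are the SE of the edgeR fit. Marco lies at 4.04, and the next in the plot is Mrc2 at 2.13.

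Mrc2 is also known from fibroblasts. Of 9 tested fibroblast and stroma markers, 5 rose in KO and none fell, beside 8.44% higher and 6.21% lower of all tested genes. Dcn had a log2 fold change of 1.78 (edgeR adjusted p = 5.63e-06). The summed level of the 10 markers was 346 to 419 CPM in KO and 162 to 197 CPM in WT libraries. Among the 5, Cxcl12 lost its call without any single library other than KO replicate 3 (highest adjusted p = 0.151) and without KO replicate 2 and WT replicate 3 together (0.240). The part of this in the values of Mrc2 and Scara3 was not tested. The macrophage markers summed to 33528 to 38656 CPM in KO and 35214 to 42618 CPM in WT libraries, and of 10 tested, 0 rose and 1, Cd14, fell. Lyz2 alone averaged 24897 CPM in KO and 28413 CPM in WT, so the sum is mostly 1 gene. Lyz2 and Itgam share 31.7% and 67.9% of their words with other genes, so this sum is uncertain. Dendritic cell markers summed to 28.3 to 36.2 CPM in KO and 16.2 to 20.6 CPM in WT, with Xcr1 at no more than 3 counts in any library. Itgax was called higher (1 of 4 tested) and none of the other tested markers was called. Itgax alone averaged 28.1 CPM in KO and 13.9 CPM in WT, so this sum is mostly 1 gene. It shares 10.5% of its words with other genes, so its value is uncertain. Neutrophil and granule markers summed to 1043 to 1402 CPM in KO and 1109 to 1490 CPM in WT, with 2 of 10 higher and 3 lower. Of these, S100a9 lost its call without any single library other than KO replicate 2 or WT replicate 2 (adjusted p of up to 0.156). Endothelial markers summed to 32.3 to 47.4 CPM in KO and 37.6 to 51.4 CPM in WT, with 1 of 5 tested, Kdr, lower. Its call was lost without KO replicate 1, KO replicate 3, WT replicate 1 or WT replicate 3 (adjusted p of up to 0.0698), which leaves 0 of 5. Lymphocyte markers summed to 0.349 to 1.04 CPM in KO and 1.92 to 2.37 CPM in WT, with 1 tested and lower, and Cd3g at no more than 3 counts in any library.

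Genes that mark the tissue macrophages in which Marco, Cd163 or Cd5l are known to be abundant formed a list of 22. Of these, 12 passed the count filter, 1 rose and 0 fell, beside 8.44% higher and 6.21% lower of all tested genes, with a median log2 fold change of 0.016. The one that rose was Spic, the transcription factor of haem-recycling splenic red pulp macrophages. It had 37.9 ± 7.36 CPM in KO and 22.3 ± 4.71 CPM in WT (SD, n = 3 each; log2 fold change 0.75 ± 0.18 SE, edgeR adjusted p = 0.0164). Spic was highest in KO replicate 2 (46.2 CPM) and lowest in WT replicate 3 (16.9 CPM). Its smallest log2 fold change over the alternative analyses given below was 0.39. Siglec1, the sialic acid lectin of marginal metallophilic macrophages, was not called, at 1538 CPM in KO and 1668 CPM in WT.

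Of transcription factors and cytokine receptors listed for their link to Marco expression, 17 were tested. Among them 0 rose and 3 fell, beside 8.44% higher and 6.21% lower of all tested genes. The list median log2 fold change was -0.098. The receptor chain Il10ra fell, at 172 ± 13.4 CPM in KO and 244 ± 5.70 CPM in WT (SD, n = 3 each; log2 fold change -0.52 ± 0.10 SE, edgeR adjusted p = 0.00501). The transcription factors Mitf (log2 fold change -0.39, edgeR adjusted p = 0.0263) and Bach1 (log2 fold change -0.42, edgeR adjusted p = 0.0305) fell too. Mitf lost its call without any one of the 6 libraries (adjusted p of up to 0.0849) and Bach1 without any one except WT replicate 2 (up to 0.109). The stress factor gene Nfe2l2 was not called, with a log2 fold change of -0.36 (edgeR adjusted p = 0.0558).

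Around Cd163, which itself was level, genes of haemoglobin and haem handling were called in both directions. Of 11 tested, 4 rose and 1 fell, beside 8.44% higher and 6.21% lower of all tested genes. The list median log2 fold change was 0.036. Hmox1, the inducible haem oxygenase, had 1150, 1523 and 1059 CPM in KO replicates 1 to 3, against 811, 693 and 629 CPM in WT replicates 1 to 3, with no overlap (log2 fold change 0.79 ± 0.15 SE, edgeR adjusted p = 0.00475). Haptoglobin, Hp, which binds free haemoglobin, stood at 2324 ± 343 CPM in KO and 1494 ± 64.5 CPM in WT (SD, n = 3 each; log2 fold change 0.62 ± 0.12 SE, edgeR adjusted p = 0.00527). The biliverdin reductase Blvrb (0.56, edgeR adjusted p = 0.00921) and, added after its values were seen, the haem transporter Slc48a1 (0.40, edgeR adjusted p = 0.0236) rose as well on the log2 scale. Smallest log2 fold changes over the alternative analyses given below were 0.52 for Hmox1, 0.46 for Hp and 0.38 for Blvrb. The constitutive oxygenase Hmox2 fell by 0.51 (edgeR adjusted p = 0.0158). The call of Slc48a1 was lost without KO replicate 1 or WT replicate 2 (highest adjusted p = 0.0713). Hmox2 lost its call without KO replicate 1, KO replicate 3, WT replicate 1 or WT replicate 2 (highest adjusted p = 0.0873).

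Beside the lipid receptors Cd36, Scarb1 and Msr1, genes of lipid uptake and storage were split. Of 21 tested, 2 rose and 3 fell, beside 8.44% higher and 6.21% lower of all tested genes. The list median log2 fold change was -0.19. Cpt1a, which brings long-chain fatty acids to mitochondrial oxidation, rose, at 136 ± 7.13 CPM in KO and 81.6 ± 9.55 CPM in WT (SD, n = 3 each; log2 fold change 0.72 ± 0.12 SE, edgeR adjusted p = 0.00175). Abcg1, the sterol exporter, fell, at 131 ± 14.5 CPM in KO and 201 ± 21.6 CPM in WT (SD, n = 3 each; log2 fold change -0.65 ± 0.11 SE, edgeR adjusted p = 0.00315). The lipoprotein receptor Vldlr rose from a low level (1.33, edgeR adjusted p = 0.0260). The lysosomal acid lipase Lipa, added after its values were seen, fell by 0.33 on the log2 scale (edgeR adjusted p = 0.0428). Neither call held throughout. Vldlr lost its call without KO replicate 1, WT replicate 1 or WT replicate 2 (adjusted p of up to 0.118) and with limma-trend on log2 FPKM plus 1 or plus 0.1 (limma adjusted p = 0.108 and 0.0597), and Lipa without any one except KO replicate 2 (up to 0.18). The lipid-sensing factor gene Pparg, known to act on Cd36, stood at 3.13 CPM in KO and 4.21 CPM in WT and was not called (log2 fold change -0.45, edgeR adjusted p = 0.159).

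Among 18 tested partners of Cd36 and Msr1 in the membrane and in signalling, 1 rose and 2 fell. Of all tested genes, 8.44% were higher and 6.21% lower. The list median log2 fold change was -0.097. The tetraspanin Cd81 had 86.7, 99.4 and 77.5 CPM in KO replicates 1 to 3, against 53.7, 49.3 and 46.6 CPM in WT replicates 1 to 3 (log2 fold change 0.80 ± 0.12 SE, edgeR adjusted p = 0.00126). Tlr6, which with Cd36 and Tlr4 forms a receptor complex for oxidised lipoprotein, had 24.0, 24.0 and 23.8 CPM in KO replicates 1 to 3, against 42.3, 37.6 and 36.8 CPM in WT replicates 1 to 3 (log2 fold change -0.72 ± 0.11 SE, edgeR adjusted p = 9.82e-04). Neither gene overlapped between genotypes, but Tlr6 shares 16.4% of its words with other genes, so its value is uncertain. The inflammasome sensor Nlrp3 fell by 0.31 on the log2 scale at the edge of the threshold (edgeR adjusted p = 0.0498) and lost its call without any one of the 6 libraries (adjusted p of up to 0.184).

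Scarb2 and Cd68 sit in the lysosome membrane, and of 20 tested lysosome genes listed with them, 0 rose and 6 fell. Of all tested genes, 8.44% were higher and 6.21% lower. The list median log2 fold change was -0.19. The asparaginyl endopeptidase Lgmn had 1582, 1583 and 1594 CPM in KO replicates 1 to 3, against 2064, 2016 and 2052 CPM in WT replicates 1 to 3 (log2 fold change -0.39 ± 0.085 SE, edgeR adjusted p = 0.0105). Psap, the precursor of the saposins, fell by 0.48 (edgeR adjusted p = 0.0107), Lamp1 by 0.35 (edgeR adjusted p = 0.0194) and the cathepsin Ctsb by 0.36 (edgeR adjusted p = 0.0220) on the log2 scale. The cathepsins Ctsl and Ctss, added after their values were seen, fell by 0.45 and 0.38 (edgeR adjusted p = 0.0281 and 0.0417). Without 1 library these calls thinned out, to Psap alone without KO replicate 1 (the other 5 at adjusted p of 0.0589 to 0.153) or KO replicate 3 (0.0511 to 0.174). Lgmn, Lamp1 and Ctss lost them without WT replicate 1 (0.0533 to 0.0813), Ctsb, Ctsl and Ctss without WT replicate 2 (0.0614 to 0.155), and Ctsb without WT replicate 3 (0.0580). With limma-trend on log2(FPKM + 1), the calls of Psap (limma adjusted p = 0.0508), Ctsb (0.0784), Ctsl (0.0642) and Ctss (0.0845) were lost.

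**Figure D4:**
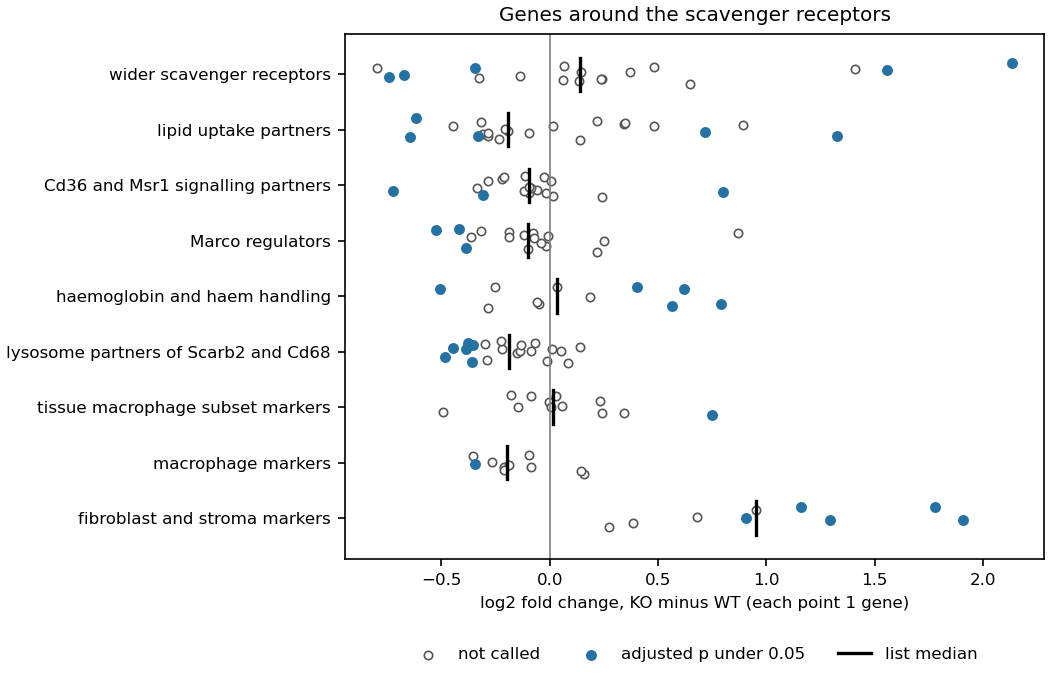
Log2 fold change, KO minus WT, of each tested gene in 9 lists around the receptors, members left out. Filled points had an adjusted p under 0.05 and black bars are list medians, which run from -0.20 for macrophage markers to 0.95 for fibroblast and stroma markers.

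Libraries of 1 genotype also differed among themselves. On the second principal component of log2 CPM, which held 15.9% of the variance, KO replicate 2 lay at -25.5 and WT replicate 3 at 23.2, each far from its own group. Stab1, a large clearance receptor, had 774 CPM in KO replicate 2 and 1653 CPM in WT replicate 3, against 853 to 1360 CPM in the other 4 libraries. Stab1 was not called. Marco was highest among KO libraries in KO replicate 2 and lowest among WT libraries in WT replicate 3, so its log2 fold change was smaller without both, at 3.74. Without both, the log2 fold change was -0.97 for Cd5l, -0.48 for Cd36, -0.40 for Scarb2, -0.042 for Cd68 and 0.058 for Cd163. The libraries that remain also differ by genotype on this component (12.6 and 10.4 in KO, -8.21 and -12.4 in WT), so along this component the genotypes separate in those 4 libraries.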

How the data were processed

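Per the labels' protocols, a strand-specific kit was used on total RNA of the 6 samples. The authors deposited read counts per gene and FPKM values in 2 tables. Trimming, alignment and counting tools listed in the submitters' processing notes are fastp, HISAT2 and HTSeq, with the build mm10; their versions and the strand setting are not given there. Each deposited FPKM value was the count divided by a gene length and the library total (to 1%, in 99.99% of cases with 10 counts or more). Totals were 32631163 to 40913819 counts per library, at which 3 counts are 0.0733 to 0.0919 CPM, for counting error only.

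The model was edgeR's quasi-likelihood F test of genotype (version 4.0.16 under R 4.3.3; TMM scaling after filterByExpr; all 6 libraries, no block), with Benjamini-Hochberg adjustment over 12219 genes. CPM uses the column total. The SE of a log2 fold change is its size over the square root of F. Members and gene lists were chosen with earlier results of these data known. Named genes were all members, Capns1, up to 4 called genes of smallest adjusted p per list outside the cell type markers, and the 5 genes most like Marco with a mean of at least 5 CPM. A gene that this rule names is not reported here. Others are marked where named, apart from markers and uncalled genes, which were picked for their role.

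No 2 libraries of a group were copies: 42.9 to 61.0% of genes differed between 2 libraries at an unadjusted chi-square p under 0.05. Some genes pass that threshold by sampling noise alone. Alternatives were RLE scaling, no filter, DESeq2 1.42.0, limma 3.58.1 (voom, and trend on log2 FPKM), a replicate block and leaving out libraries. The procedure was tested on simulated counts.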

Additional observations from a re-analysis of the deposited data

How the results depend on the processing

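The log2 fold changes of the 9 members were set against the SD of a KO minus WT difference in log2 CPM. That SD, the square root of the summed variances of both groups, was 0.38 for Marco and 0.18 for Msr1. Each fold change moved by less than its own such SD under each of the 15 alternatives tried (14 for Olr1). This limit is wide. Leaving out 1 of 3 libraries per group cannot move a difference of mean log2 CPM that far, so nothing is read from staying within it there. Marco ranged from 3.74 to 4.19 and Msr1 from 0.0051 to 0.24. At their largest these moves exceed the SD within 1 group (0.27 in KO and 0.27 in WT for Marco, 0.11 in KO and 0.15 in WT for Msr1). Scarb1 (-0.33 to -0.12), Scarb2 (-0.40 to -0.30) and Cd68 (-0.080 to -0.0048) also moved by more than their SD in KO (0.11, 0.020 and 0.017). Olr1 (-1.24 to -0.10) moved by more than its SD in WT (0.39), and Cd163 by about its SD in WT (0.076). The sign of Cd163 turned between alternatives (-0.082 to 0.058), around a value near 0. The share of Marco in the summed FPKM was set only against FPKM rescaled to a common sum and against leaving out 1 library of its group. Rescaling cannot change a share within a library, and leaving out 1 of 3 libraries cannot move a mean by its SD. So these settings could not show how far the share depends on processing.

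Counts of calls depended more on the setting. With 1 library left out, 704 (WT replicate 1) to 1039 genes were called higher in KO, against 1031 with all 6, and 359 to 742 lower, against 759. The lower calls were 359 without KO replicate 1, 402 without KO replicate 3, 431 without WT replicate 2 and 434 without WT replicate 1. Other scavenger receptors numbered 1 to 4 higher (1 without WT replicate 1, 4 without WT replicate 3) and 1 to 3 lower (1 without KO replicate 3 or WT replicate 2), against 2 and 3. Genes of the related lists, 8 higher and 15 lower with all 6, numbered 7 to 9 higher and 4 to 13 lower: 4 without KO replicate 3, 5 without KO replicate 1, 6 without WT replicate 1, 8 without WT replicate 2 and 9 without WT replicate 3. With limma-trend on log2(FPKM + 1), 9 were lower. Among other scavenger receptors, DESeq2 called 5 lower, and 1 was called higher where an FPKM of at least 1 was required in 3 libraries.

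With the replicate block, 1164 genes were called lower in KO, as were 5 other scavenger receptors and 25 genes of the lists. Same-numbered libraries correlated at -0.098, 0.23 and 0.18 in their deviations from the group means, and differently numbered ones at -0.37 to 0.26. These values do not decide whether the numbers mark pairs. The labels do not state pairs either, so the main fit has no block. Leaving out KO replicate 2 and WT replicate 3, chosen after the data were seen, gave 1681 genes higher and 1505 lower, 4 other scavenger receptors higher, and 13 list genes higher and 24 lower. The causes were not tested. No gene named as called changed sign under the alternatives run.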

Other observations

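The deposited tables carry annotation terms, and 37 genes bear the term for scavenger receptor activity, 30 of them outside the 9 receptors described above. This list was taken up after the data were seen. Of these 30, 18 were tested, and 5 were higher and 3 lower in KO (edgeR adjusted p under 0.05). Of all tested genes, 8.44% were higher and 6.21% lower. The list median log2 fold change was 0.22. Ackr3, an atypical chemokine receptor, averaged 1.65 CPM in KO and 0.112 CPM in WT, where its 3 libraries held a handful of counts each (edgeR adjusted p = 2.67e-04). The lysyl oxidase relatives Loxl4 (log2 fold change 2.37, edgeR adjusted p = 0.00135) and Loxl2 (1.44, edgeR adjusted p = 0.0166) averaged 3.36 and 3.63 CPM in KO, against 0.632 and 1.32 CPM in WT. Hhipl1 averaged 2.48 CPM in KO and 0.804 CPM in WT (edgeR adjusted p = 0.00620). Enpp2, a secreted lysophospholipase D, averaged 4.22 CPM in KO and 2.03 CPM in WT (edgeR adjusted p = 0.0114). The call of Loxl2 was lost without KO replicate 2 (adjusted p = 0.0575), WT replicate 1 (0.0618), or KO replicate 2 and WT replicate 3 together (0.0700), and that of Enpp2 without both (0.0532). Loxl2 shares 46.1% of its words with other genes, so its value is uncertain. These 5 genes lie below 5 CPM on average, and the stroma markers in the same libraries were higher in KO as given above. The part of stroma in them was not tested. Enpp1 (-0.81, edgeR adjusted p = 0.00846), Colec12 and Stab2 were the 3 lower. The genes of this paragraph other than Colec12 and Stab2 were named after their values were seen.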
